A study of Mus musculus with 2 samples.

Results

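Thbd, the gene of thrombomodulin, was set beside 8 other genes known for endothelial expression, Pecam1, Kdr, Flt1, Tek, Tie1, Emcn, Eng and Vwf, in mouse embryonic ureters cultured with and without NOGGIN. The members were the gene probes whose accession maps to 1 of these 9 symbols, which gave 10 probes for 9 genes out of 21337 genes tested. They were chosen on the NOGGIN to control ratio itself, Thbd for its large ratio and the others for theirs, so their ratios are given here as a description. They entered the fit over all genes, but no p-value of theirs is given. Ureters were taken from E12.5 wildtype embryos of the NMRI strain, with the sexes mixed, and kept for 18 h on transwell membranes. The treated cultures had 10 µg/ml NOGGIN, an extracellular antagonist that captures bone morphogenetic proteins (BMPs), and the control cultures had none. RNA of 1 treated and 1 control culture was hybridised to each of 2 Agilent 2-colour arrays, replicates 1 and 2, with the dyes exchanged between the arrays. How many embryos entered a culture is not stated in the labels, nor that the replicates came from separate litters, so the spread between them may be technical.

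Blood vessels are lined by endothelial cells, which in the embryo assemble under VEGF acting on the receptor tyrosine kinases Kdr and Flt1 and mature under angiopoietins acting on Tek. Thrombomodulin is a transmembrane protein of the endothelial surface that binds thrombin and turns it from a clotting enzyme into an activator of protein C, an anticoagulant. It is widely used as an endothelial marker, but it is also made by other cells, among them mesothelium, some epithelia, monocytes and dendritic cells. In whole ureters, fewer cells of a type and less RNA per cell cannot be told apart.

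The scanned signal was well above the local background for all 10 member probes, in every spot kept and in all 4 cultures, so these endothelial markers were detected in each of them. Of 26 further endothelial genes 25 were measured, among them Cdh5, Cldn5 and Esam, while Erg was not well above background. Per channel, 67.0% to 74.0% of the gene spots exceeded background in this way and 0 were saturated. With 2 arrays the precision of each value is low. Ratios are log2 values of the NOGGIN-labelled over the control-labelled channel, following the dyes given in the labels, and a gene called higher or lower is so in NOGGIN relative to control. In the authors' deposited table the sign is the other way round, with a signed fold change of 3.65 for Thbd on replicate 1 and 5.62 on replicate 2. Id1, a gene switched on by BMP signalling, was higher by 1.98 ± 0.62 (SD, n = 2) in the label-based direction although NOGGIN blocks BMPs. Id3, Smad6, Smad7 and Smad9, which lie downstream of BMP receptors, were higher in that direction too, at 1.45, 1.01, 0.55 and 2.37. The direction is therefore not settled, and the names NOGGIN culture and control culture follow the labels throughout. Turning the sign would exchange higher and lower throughout and leave sizes, counts in all and p-values as they are.

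Promoter sequence was at hand for 6 of the 9 genes, Kdr, Flt1, Tek, Tie1, Emcn and Eng, in RefSeq's GRCm38.p6 annotation (windows of 300 bases around the start the table uses). Set against the gene extents of the same annotation, 250 bases of the windows of Tie1 and Eng, 234 of that of Emcn and 47 of that of Tek lie upstream of the gene, and 0 of those of Flt1 and Kdr, which lie inside it. The windows of Flt1, Tie1, Emcn and Eng hold the letters aggaag on either strand, and the 3 of them that lie mostly upstream are shown with these letters, or their reverse complement, in capitals. The letters are a form of the core site of ETS factors, which act widely in endothelial genes. They occur at 2 places in each of the 4 windows, and 35.4% of all 32851 promoters listed hold them. Both a shorter and a longer form that overlap it were also searched. The shorter, ggaag, is in 71.4% of all promoters and in 5 of the 6, and the longer, caggaag, in 13.3% and in 1 of the 6 (Emcn). The GATA factor form agataa was in 1 of the 6 (Tek) and in 11.2% of all promoters. The form ggcgcc, bound by BMP-activated SMADs, was in 0 of the 6 and in 11.9% of all promoters. The form marked was chosen after the matches of all 5 were seen. A match of letters does not show binding.
Tie1, chr4:118489800-118490099, minus strand: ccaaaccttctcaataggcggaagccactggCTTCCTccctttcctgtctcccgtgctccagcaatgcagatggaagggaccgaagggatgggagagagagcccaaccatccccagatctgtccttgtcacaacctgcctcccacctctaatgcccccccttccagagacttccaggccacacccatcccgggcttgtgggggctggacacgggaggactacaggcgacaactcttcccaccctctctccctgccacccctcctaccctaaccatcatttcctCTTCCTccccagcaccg
Emcn, chr3:137340828-137341127, plus strand: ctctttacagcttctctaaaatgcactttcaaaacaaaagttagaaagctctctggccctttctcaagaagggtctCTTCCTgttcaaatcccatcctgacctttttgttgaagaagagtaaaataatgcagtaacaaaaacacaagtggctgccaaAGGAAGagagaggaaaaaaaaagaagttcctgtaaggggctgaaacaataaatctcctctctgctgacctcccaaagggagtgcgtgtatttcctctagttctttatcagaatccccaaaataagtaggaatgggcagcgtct
Eng, chr2:32646345-32646644, plus strand: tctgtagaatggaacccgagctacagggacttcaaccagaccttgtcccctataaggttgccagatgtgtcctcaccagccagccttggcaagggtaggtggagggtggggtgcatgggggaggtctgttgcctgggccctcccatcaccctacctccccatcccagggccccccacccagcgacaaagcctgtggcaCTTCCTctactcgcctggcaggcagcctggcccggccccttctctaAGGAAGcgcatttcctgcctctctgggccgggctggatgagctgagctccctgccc

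Thbd was far lower in the NOGGIN-labelled channel of both arrays. Of the 9 genes, Thbd and Eng lie on chromosome 2, Emcn on 3, Tek and Tie1 on 4, Kdr and Flt1 on 5, Vwf on 6 and Pecam1 on 11. Thbd lies on chromosome 2 from 148404471 to 148408188 in GRCm38.p6, and its only probe on the array is designed on NM_009378. The normalised intensity of Thbd was 1668 and 1378 in the NOGGIN cultures of replicates 1 and 2, against 5895 and 7151 in the control cultures. The NOGGIN values thus lay below both control values, with no overlap, as NOGGIN and control values did not overlap for 51.2% of all genes. The log2 ratio was -1.82 on replicate 1 and -2.38 on replicate 2, with a mean of -2.10 ± 0.39 (SD, n = 2), a 4.28-fold lower signal. The 4 spots of the probe gave ratios between -1.90 and -1.70 on replicate 1 and between -2.40 and -2.34 on replicate 2, so the arrays differed by more than the spots within an array.

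The exchange of dyes shows the size of the Thbd difference before any normalisation. On replicate 1, where NOGGIN RNA was read in green, the background-subtracted signal of Thbd averaged 1282 in the NOGGIN channel, against 7077 in the control channel. On replicate 2, where NOGGIN RNA was read in red, it averaged 1584 in the NOGGIN channel and 5985 in the control channel. The red channel was the brighter one for the 8 other genes on both arrays, by little for Vwf on replicate 2 (205.5 in the NOGGIN channel and 204.4 in the control channel). On replicate 2 Kdr (first probe) had 14099 in the NOGGIN channel and 8105 in the control channel, and on replicate 1 it had 7311 in the NOGGIN channel and 10519 in the control channel. Thbd was thus lower in the NOGGIN channel with either dye, while Kdr followed the dye.

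**Figure D1:**
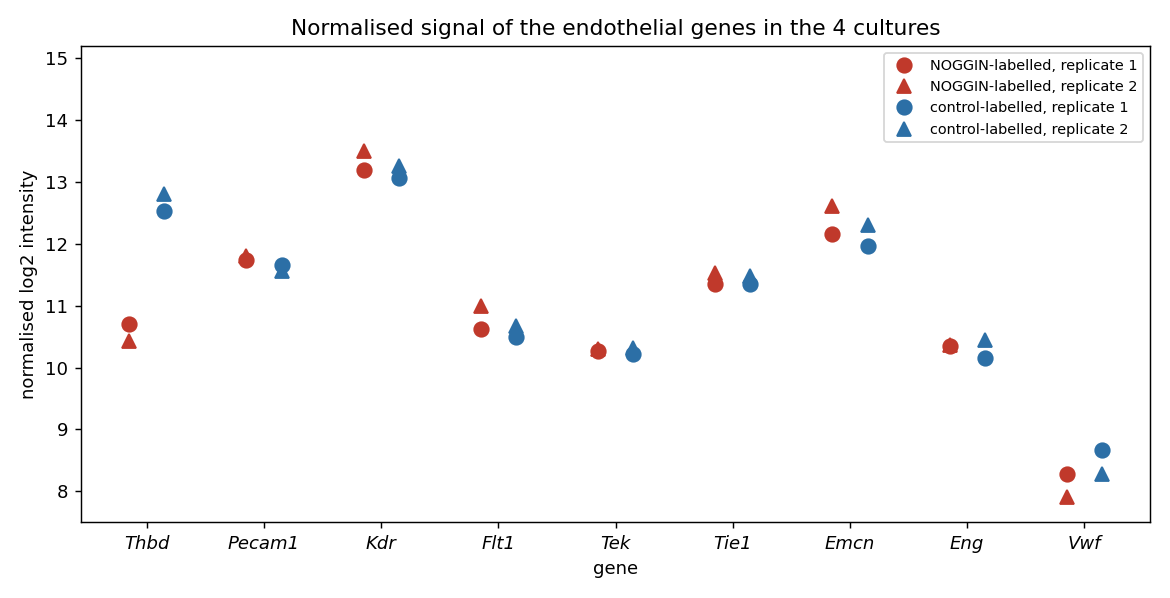
Normalised log2 intensity (y axis) of the 9 genes (x axis) in the NOGGIN-labelled (red) and control-labelled (blue) channels of replicates 1 (circles) and 2 (triangles). Levels of different genes come from different probes and are not comparable. Both Thbd points of the NOGGIN cultures lie below those of the control cultures, with ratios of -1.82 and -2.38.

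The genes of the VEGF receptors had ratios slightly above 0. Kdr, the main signalling receptor for VEGF, had a normalised intensity of 9379 and 11538 in the NOGGIN cultures, against 8538 and 9750 in the control cultures. Its ratio was 0.14 on replicate 1 and 0.24 on replicate 2 (mean 0.19 ± 0.076, SD, n = 2), and a second, dimmer probe of Kdr gave 0.030 ± 0.064. The NOGGIN value was the higher one on each array, but the NOGGIN value of replicate 1 lay below the control value of replicate 2. Flt1, a VEGF receptor that also acts as a decoy, had 1574 and 2041 in the NOGGIN cultures and 1440 and 1640 in the control cultures, with a ratio of 0.22 ± 0.13. The Flt1 values of the groups overlapped as well.

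The angiopoietin receptor gene and its relative had ratios next to 0. Tek, the receptor for angiopoietins, had intensities of 1236 and 1263 in the NOGGIN cultures, against 1198 and 1276 in the control cultures. Its ratio was 0.045 on replicate 1 and -0.015 on replicate 2, a mean of 0.015 ± 0.042. Tie1, an orphan receptor that partners with Tek, had 2626 and 2966 in the NOGGIN cultures and 2622 and 2856 in the control cultures, with a ratio of 0.028 ± 0.037. The mean ratios of both were smaller than their SD between arrays.

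Among the surface proteins, Pecam1, Emcn and Eng had ratios of at most 0.25 in size. Pecam1, an adhesion molecule of endothelial junctions, had 3404 and 3589 in the NOGGIN cultures, against 3217 and 3007 in the control cultures, with a ratio of 0.17 ± 0.12. Both Pecam1 values of the NOGGIN cultures lay above both control values. Thbd, Vwf and Pecam1 were the 3 of 9 members without overlap, a lower share than the 51.2% of all genes, and nothing is read from it. Emcn, the sialomucin endomucin of capillary and venous endothelium, had 4593 and 6238 in the NOGGIN cultures and 3994 and 5066 in the control cultures, with a ratio of 0.25 ± 0.070. Eng, endoglin, a coreceptor for BMP9 and BMP10 on endothelial cells, had 1311 and 1324 in the NOGGIN cultures and 1139 and 1395 in the control cultures. Its ratio was 0.20 on replicate 1 and -0.076 on replicate 2, so its sign differed between the arrays (mean 0.063 ± 0.20).

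Vwf, von Willebrand factor, which tethers platelets and carries clotting factor VIII, was the other member with a negative ratio on both arrays. Its intensity was 309.2 and 241.4 in the NOGGIN cultures, against 406.4 and 311.2 in the control cultures. The NOGGIN culture was lower on each array and both NOGGIN values lay below both control values, though by little. The Vwf ratio was -0.39 on replicate 1 and -0.37 on replicate 2 (mean -0.38 ± 0.020), a 1.30-fold lower signal. With the authors' deposited values, turned to the labelled direction, its ratio was -0.53.

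**Figure D2:**
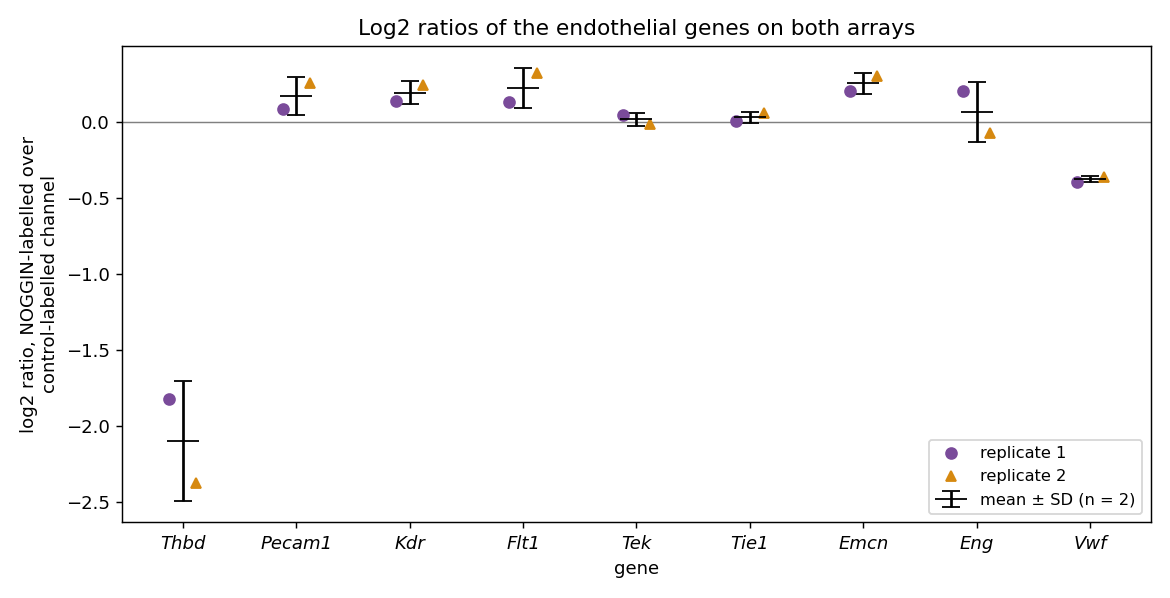
Log2 ratio of the NOGGIN-labelled over the control-labelled channel (y axis) for each gene (x axis) on replicate 1 (circles) and replicate 2 (triangles), with bars for the mean ± SD of the 2 arrays. Thbd lies at -2.10, Vwf at -0.38 and the other 7 genes between 0.015 and 0.25.

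Set against the median of the 8 other genes, Thbd lay far below it on both arrays. The median ratio of the 8 was 0.10 on replicate 1 and 0.15 on replicate 2. Thbd minus that median was -1.93 and -2.52 (mean -2.21 ± 0.42, SD, n = 2). Thbd minus Vwf was -1.43 and -2.01. Of the 8 others, 5 had positive ratios on both arrays, 1 (Vwf) had negative ratios on both and 2 (Tek and Eng) had opposite signs. Thbd was the only member at least 1.5-fold lower on both arrays, as were 1.55% of all genes, and in the limma fit over all genes Thbd and Vwf passed the threshold (adjusted p at most 0.05), as did 7.97% of all genes, 3.95% of them higher and 4.03% lower. Since the members were chosen on this contrast, nothing is read from that count. Over all 21337 genes, 10 had a lower mean ratio than Thbd. The median size of a ratio, without its sign, was 0.18 over the 8 other members and 0.10 over all genes.

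**Figure D3:**
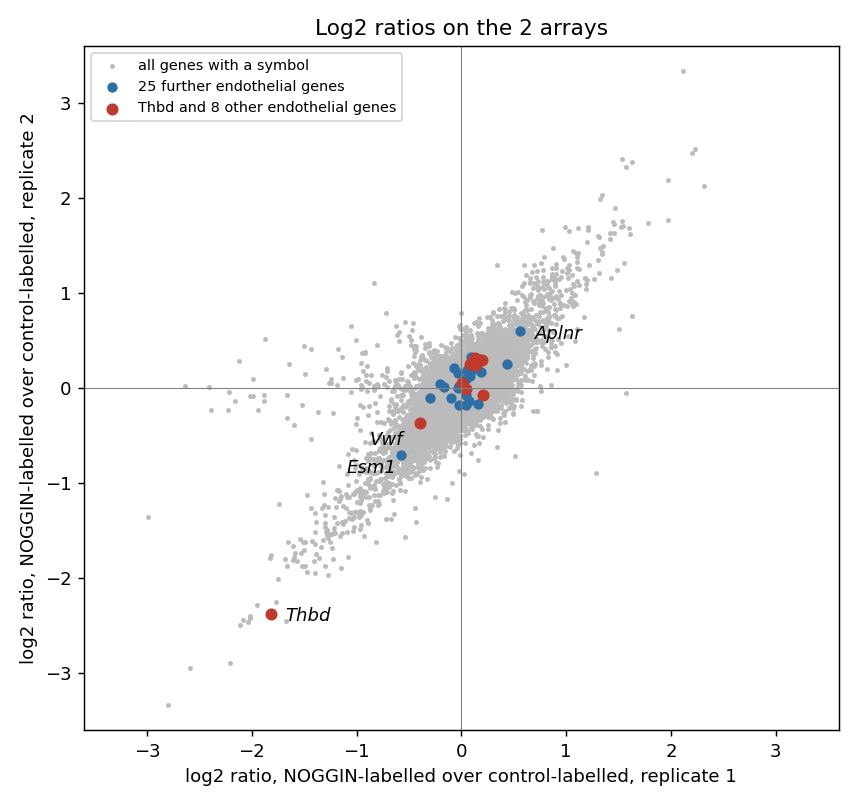
Log2 ratio on replicate 1 (x axis) against replicate 2 (y axis) for all genes with a symbol (grey), 25 further endothelial genes (blue) and Thbd with the 8 other genes (red). Thbd lies at -1.82 and -2.38, and Esm1, the next lowest endothelial gene on both axes, at -0.57 and -0.70.

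The further endothelial genes, a list of receptors, junction proteins and transcription factors of endothelial cells, gave few calls. Of 25 measured genes 1 was higher, 1 lower and 23 did not pass in limma, a share called close to the 7.97% of all genes. Their median ratio was 0.027, against 0.00083 over all genes tested. Esm1, endocan, which sprouting endothelial cells secrete, had 3578 and 3886 in the NOGGIN cultures, against 5329 and 6322 in the control cultures, and was lower at -0.64 ± 0.090 (SD, n = 2; limma adjusted p = 0.0144). Aplnr, the apelin receptor of venous and sprouting endothelium, had 1723 and 2031 in the NOGGIN cultures and 1165 and 1344 in the control cultures, and was higher by 0.58 ± 0.022 (limma adjusted p = 0.0155). For both genes the groups did not overlap, as for 51.2% of all genes, and nothing is read from it. Cdh5, VE-cadherin of endothelial junctions, gave 0.34 ± 0.13 and did not pass (limma adjusted p = 0.0799). Of the 25 genes, 11 had positive ratios on both arrays, 4 negative ratios on both and 10 opposite signs. Thbd was the 1 gene with a mean ratio below -1 among the 34 endothelial genes measured. When each array was centred on its median in place of loess, 0 genes of any list passed in limma (3572 of all genes had an unadjusted p under 0.05). Every call here and below was thus lost in that setting. With Agilent's processed signals, also centred on the median, 1702 of all genes passed.

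Genes of the protein C pathway, clotting and fibrinolysis, in which thrombomodulin acts, had 3 of 19 measured members lower, 0 higher and 16 that did not pass (list median -0.021). Over all genes tested, 4.03% were lower and 3.95% higher. F2, which encodes the thrombin that thrombomodulin binds, and F2rl2 and Serpina5 were not well above background. Proc, the gene of protein C, which the thrombin and thrombomodulin complex activates, was lower at -0.85 ± 0.22 (limma adjusted p = 0.0131), from signals of 275.2 and 258.9 in the NOGGIN cultures, against 444.6 and 517.4 in the control cultures. F3, tissue factor, the cell surface starter of clotting, had 15738 and 16093 in the NOGGIN cultures, against 25419 and 29654 in the control cultures. F3 was lower at -0.79 ± 0.13 (limma adjusted p = 0.0104), and its other probe gave -0.74.

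The remaining genes of that pathway had smaller ratios. Procr, the endothelial receptor that holds protein C near thrombomodulin, gave -0.081 ± 0.0088 and Pros1, protein S, a cofactor of activated protein C, gave 0.37 ± 0.082 (limma adjusted p = 0.572 and 0.0521). The thrombin receptor gene F2r gave 0.063 ± 0.010 and Tfpi, an inhibitor of the tissue factor pathway, -0.086 ± 0.0047. Plat, tissue plasminogen activator, gave -0.27 ± 0.057 (limma adjusted p = 0.109). Of the 19 genes 13 had a mean ratio within 1.2-fold of no difference.

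Of 9 factors known to act on the Thbd gene, 1 was lower, 1 higher and 7 did not pass (list median -0.0047). The share called over all genes was 7.97%, and nothing is read from the count in so short a list. Klf4, a Krüppel-like factor that raises thrombomodulin in endothelial cells, had 4506 and 5057 in the NOGGIN cultures, against 6070 and 7707 in the control cultures, and was lower at -0.52 ± 0.13 (limma adjusted p = 0.0276). Klf2, its flow-induced relative, gave -0.26 ± 0.0083 and did not pass (limma adjusted p = 0.111). Rxra, a retinoid receptor gene, was higher by 0.51 ± 0.0065 (limma adjusted p = 0.0210), but its other probe gave 0.12 and the call was lost with the mean of both probes (0.31, adjusted p = 0.0601). Hif1a gave 0.27 ± 0.24 (limma adjusted p = 0.214), and the retinoic acid receptor genes Rara and Rarb gave -0.20 ± 0.055 and 0.0067 ± 0.11.

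Among 12 measured ligands and partners of the VEGF and angiopoietin receptors 2 were higher, 0 lower and 10 did not pass (list median -0.010). The share higher over all genes was 3.95%. Flt4 was not well above background. Angpt1, the activating ligand of Tek, had 4222 and 4587 in the NOGGIN cultures, against 2732 and 3046 in the control cultures, and was higher by 0.61 ± 0.026 (limma adjusted p = 0.0137). Ptprb, the phosphatase VE-PTP that restrains Tek, had 2830 and 3679 in the NOGGIN cultures and 2146 and 2172 in the control cultures. It was higher by 0.58 ± 0.26 (limma adjusted p = 0.0410), with a second probe at 0.43, though not with the authors' deposited values (adjusted p = 0.0626). Angpt4 gave -0.42 ± 0.19 (limma adjusted p = 0.0648). The VEGF ligand genes Vegfa and Vegfc gave -0.14 ± 0.099 and 0.27 ± 0.040, and neither passed.

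In the BMP receptor arm in which endoglin acts, the ligand genes Gdf2 and Bmp10 were not well above background. Of 10 measured genes, 6 were higher, 0 lower and 4 did not pass (list median 0.73), against 3.95% higher over all genes. The receptor genes Acvrl1 and Bmpr2 gave 0.17 ± 0.057 and -0.12 ± 0.045 and did not pass (limma adjusted p = 0.252 and 0.424), nor did Smad1 and Smad5. The genes that passed lie downstream of the receptors or, as Bmper, encode an extracellular BMP modulator. They were Smad9, Id1, Id3, Smad6, Bmper and Smad7, at 2.37 ± 0.20, 1.98 ± 0.62, 1.45 ± 0.21, 1.01 ± 0.17, 0.91 ± 0.036 and 0.55 ± 0.082. These values come from whole ureters and cannot be assigned to endothelial cells. Higher is meant in the label-based direction, which is not settled.

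**Figure D4:**
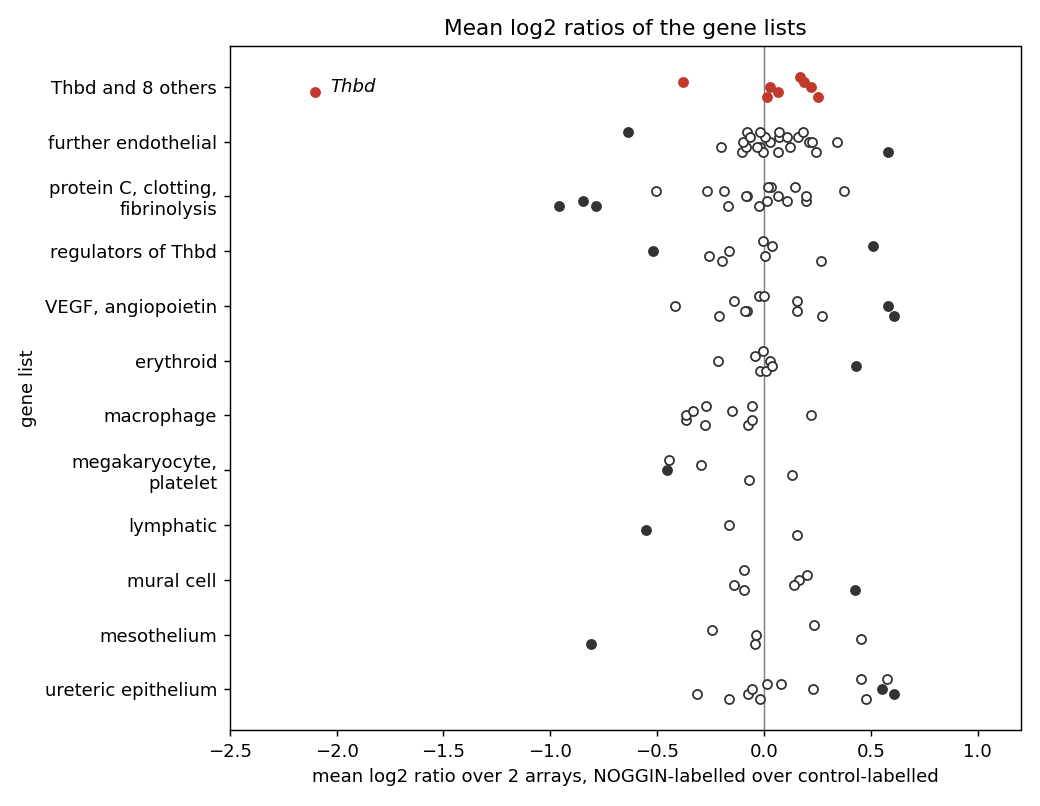
Mean log2 ratio over 2 arrays (x axis) of each measured gene in 12 gene groups (y axis), with filled black points for genes past the limma threshold, open points for the others and red points for Thbd and the 8 other genes, drawn without their limma call. Thbd, at -2.10, lies below every other gene drawn.

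Markers of other cells that make thrombomodulin or von Willebrand factor were read on the same arrays, and their part in the Thbd and Vwf ratios was not tested. Over all genes 7.97% were called, and the counts of calls in these short marker lists, here and below, are not read as a result. Of 10 measured macrophage genes 0 passed in limma (list median -0.21), and their summed intensity was 26221 and 25395 in the NOGGIN cultures, against 33360 and 24895 in the control cultures. This sum was lower in NOGGIN on replicate 1 and slightly higher on replicate 2. The genes with the largest ratios, C1qb, C1qa and C1qc, gave -0.37 ± 0.16, -0.37 ± 0.27 and -0.33 ± 0.24. Of the list, 9 genes had a negative mean ratio and 1, Cx3cr1, a positive one (0.22 ± 0.039). Adgre1, Cd68, Cd14 and Csf1r had opposite signs on the arrays, and Fcgr1 was not well above background. Of 5 measured megakaryocyte and platelet genes 1 was lower and 0 higher (list median -0.29), with Gp9, Gp1ba and Gp6 not well above background. Their summed intensity was 2110 and 2075 in the NOGGIN cultures, against 2613 and 2594 in the control cultures. Ppbp gave -0.44 ± 0.60 and Pf4 gave -0.29 ± 0.18.

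Mesothelium and epithelium gave mixed values beside Thbd, with few calls to set beside the 7.97% of all genes called. Of 6 measured mesothelial genes 1 was lower and 0 higher (list median -0.040), with Calb2 not well above background. The summed intensity of the mesothelial list was 40649 and 33775 in the NOGGIN cultures, against 31549 and 35207 in the control cultures. Krt19 holds most of it. Without Krt19 the sum was 8683 and 6964 in the NOGGIN cultures, against 11363 and 12624 in the control cultures, lower on both arrays. Most of that remainder is Wt1, with 5832 and 4554 in the NOGGIN cultures, against 8443 and 9645 in the control cultures. Of the list, 2 genes had a positive and 4 a negative mean ratio. Wt1, which also marks other urogenital mesenchyme, was lower at -0.81 ± 0.39 (limma adjusted p = 0.0354; 0.0547 with the authors' deposited values), while Msln, mesothelin, gave -0.24 ± 0.20 and Krt19, which is also in the epithelial list, gave 0.46 ± 0.29. Of 13 genes of the ureteric epithelium 2 were higher and 0 lower (list median 0.081). Their summed intensity was 266985 and 267345 in the NOGGIN cultures, against 230077 and 253178 in the control cultures. Most of that sum came from Krt18 and Krt8. Upk2, a uroplakin, and Foxa1 passed at 0.61 ± 0.23 and 0.55 ± 0.0089 (limma adjusted p = 0.0311 and 0.0175), and Upk1a gave 0.58 ± 0.36.

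Blood and vessel-associated cells showed small differences, with few calls to set beside the 7.97% of all genes called. Of 8 measured erythroid genes 1 was higher and 0 lower (list median 0.0023). Their summed intensity was 487521 and 501255 in the NOGGIN cultures, against 527987 and 445061 in the control cultures. Most of that sum came from Hbb-y and Hba-a1. Hbb-y had 206042 and 251973 in the NOGGIN cultures, against 255324 and 193371 in the control cultures, with ratios of -0.31 and 0.38. Epor, the erythropoietin receptor, was the gene that passed (0.43 ± 0.13, limma adjusted p = 0.0445), and that call was lost in 4 of 8 alternatives. Slc4a1 gave -0.22 ± 0.24 and the embryonic globin gene Hba-x -0.041 ± 0.095. Of 7 mural cell genes 1, Abcc9, was higher (0.43 ± 0.058, limma adjusted p = 0.0352) and 0 lower (list median 0.14), with Mcam at 0.20 ± 0.14 and Kcnj8 at 0.16 ± 0.024. Their summed intensity was 63210 and 65807 in the NOGGIN cultures, against 61918 and 64731 in the control cultures. Of 3 measured lymphatic genes Pdpn, podoplanin, which other cells make too, was lower (-0.55 ± 0.086, limma adjusted p = 0.0199). Prox1 and Lyve1, used as markers of lymphatic endothelium, gave -0.16 ± 0.11 and 0.15 ± 0.063. The summed lymphatic intensity was 6868 and 6439 in the NOGGIN cultures, against 9484 and 9611 in the control cultures, nearly all of it from Pdpn. Without Pdpn it was 424.2 and 442.5 in the NOGGIN cultures, against 415.6 and 428.2 in the control cultures.

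The genes most like Thbd in their ratios on the 2 arrays, by Euclidean distance, were not endothelial markers of the lists above. They were Osr2 (distance 0.14), Lrrc55 (0.16), Stra6l (0.17), Prmt8 (0.20) and Lrig1 (0.20), on the log2 scale. Osr2, a transcription factor gene of urogenital mesenchyme, had 900.1 and 730.4 in the NOGGIN cultures, against 3062 and 3464 in the control cultures, and ratios of -1.77 and -2.25. Lrig1, which encodes a membrane protein that restrains growth factor receptors, had 1522 and 1375 in the NOGGIN cultures and 6162 and 7340 in the control cultures. With 2 arrays, the distance rests on 2 values a gene.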

How the data were processed

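Each sample is 1 array with a NOGGIN and a control channel, labelled with exchanged Alexa Fluor dyes from 200 ng total RNA, per the labels' protocols. Both arrays lay on 1 slide, per the file headers. The deposited scanner files hold spot intensities from Agilent Feature Extraction 10.7.3.1, per the file headers and the submitters' processing notes, and a log10 ratio per spot by the same software, per the file headers, which was not used. The authors' deposited table is a score, a signed fold change per probe with normalisation and direction not given in the sources used here. On the log2 scale it had r = -0.983 and -0.984 with the label-oriented ratios of the same array. Its columns have a median of 1.

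Mean signals were corrected with normexp (offset 50) and normalised by loess within arrays, with control, filler and outlier spots at weight 0. The 4 spots of a probe were averaged. Intensities per channel were scaled between arrays (Aquantile). Probes were named through accessions and RefSeq's GRCm38.p6 gene table (28328 of 39429 matched). Probes with a share above 0.5 of spots well above background in both cultures of 1 condition were kept, and the brightest represented a gene. Ratios of 21337 genes were tested against 0 in limma 3.58.1 (R 4.3.3), two-sided, with 1 residual and 4.12 prior degrees of freedom, and p-values were adjusted by Benjamini-Hochberg (threshold 0.05). The procedure was tested on simulated data.

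The members and gene lists were chosen with earlier results of these data known. Genes named were all members, and from every other list each gene past the threshold, filled up to 3 by the size of the ratio. Other genes of the lists named in the text were chosen after their values were seen, for their role or their share of a sum. The motifs were likewise chosen for their role, after their matches were seen. The 5 genes nearest to Thbd were taken among genes measured in both conditions, without predicted or clone names. Some genes of these lists are not reported here, though the counts, medians and sums of their lists include them.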

Additional observations from a re-analysis of the deposited data

How the results depend on the processing

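The ratio of Thbd lay between -2.38 and -1.82 over 10 alternatives in background correction, normalisation, starting values, filter on dim probes, probe choice and left-out replicate, and Thbd minus the median of the 8 other members lay between -2.52 and -1.93. That median lay between 0.082 and 0.15: it was 0.082 with each array centred on its median in place of loess, and 0.15 without replicate 1 and 0.10 without replicate 2. Centring without loess ended every limma call: 0 genes passed, against 3572 with an unadjusted p under 0.05, as did 0 of the further endothelial genes (3 unadjusted) and 0 of the protein C and clotting genes (6 unadjusted). There the smallest adjusted p of a named gene was 0.0868, for Smad9, whose ratio was 2.35 there and 2.37 with loess. All 3 counts of calls stayed within 1.5 times under the other 7 alternatives with a test. No named gene past the threshold changed sign in any of these 8. With 1 array left, no test can be made, so leaving out a replicate gives ratios only. The ratios of Tek, Eng and Tie1, all next to 0, changed sign in 1 or more alternatives (lowest -0.015, -0.076 and -0.0092). Vwf lay between -0.53 and -0.37. Angpt4 passed with normexp at offset 0 and with Agilent's processed signals (adjusted p = 0.0497 and 0.0455), and Upk1a with no background correction (adjusted p = 0.0474). The cause of these changes was not tested.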
